A study of Mus musculus with 2 samples.

Results

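The genes described here carry fibroblast growth factor (FGF) signalling in the embryonic mouse ureter: the ligands Fgf7, Fgf9 and Fgf10, the receptors Fgfr1 and Fgfr2, and the response and feedback genes Etv4, Etv5, Spry1, Spry2 and Dusp6. They were taken as every non-control array probe whose RefSeq accession belongs to 1 of these 10 genes, which gave 14 of the 39429 probes and 10 of the 21368 named genes on the array. Expression was compared at E14.5, mid-gestation, between NMRI ureters labelled Tbx2/Tbx3cDKO and control ureters. The labelled knockouts carried floxed copies of Tbx2 (fl/fl) and of Tbx3 (fl/fl) together with 1 Tbx18(cre/+) allele, in which Cre recombinase made from the Tbx18 locus acts in the progenitors of the ureteric mesenchyme and not in the epithelium. The controls had no Cre allele, Tbx18(+/+), and carried a floxed allele of Tbx2 (fl/?) and of Tbx3 (fl/?). The other allele of each was not specified. The Cre allele was present only in the labelled knockouts, so its effect and that of deleting Tbx2 and Tbx3 cannot be told apart. The data were 2 two-colour arrays, each with 1 labelled knockout and 1 control RNA. The females formed one pair, in which AlexaFluor647 marked the knockout RNA, and the males the other, in which AlexaFluor555 did. Sex and dye orientation therefore cannot be told apart. The sources used here do not give how many embryos went into an RNA.

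FGFs are secreted ligands that bring together pairs of receptor tyrosine kinases on a neighbouring cell and so switch on the RAS-ERK cascade. FGF7 and FGF10 act mainly on the epithelial splice form of FGFR2 and are typical signals from mesenchyme to epithelium, while FGF9 acts mainly on the splice forms of the receptors that mesenchyme carries. Active ERK induces the ETS transcription factors ETV4 and ETV5, which carry the response into the nucleus, and the inhibitors SPRY1, SPRY2 and DUSP6, which damp it. For this reason their transcripts are widely used as a readout of the pathway, although other receptor tyrosine kinases, such as RET in the ureteric bud, induce the same genes.

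Between 64.3% and 71.6% of spots were well above background in each of the 4 RNAs, and 0 spots were saturated. The targeted gene Tbx3 fell, with log2 ratios of labelled knockout over control of -1.16 (female pair) and -1.02 (male pair). The other target, Tbx2, rose, with 0.94 and 0.78, against its label. Where the probes lie relative to the deleted exons was not known here, so each direction is given for ureters by their label. Genes of the ureteric mesenchyme (10 of 10 tested), of the urothelium (12 of 12) and of smooth muscle (9 of 10; Ckm was not well above background) were detected. With 2 arrays, precision is limited by their number.

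Of the 14 FGF pathway probes, 2 were higher and 1 was lower in the labelled knockout ureters at an adjusted p under 0.05, against a background of 3.80% called among all 25934 probes tested (1.88% higher and 1.92% lower). The ligand Fgf7 fell, the ligand Fgf9 rose and the ETS factor Etv5 rose. The other 11 probes, for 7 genes, did not pass, and their mean log2 ratios lay between -0.13 and 0.21. The 14 probes had a median log2 ratio of 0.055, against -0.0015 over all probes tested. All 14 probes passed the filter on dim probes, and all 16 spots of each (4 spots in each of 4 RNAs) were well above background. At intensities rounded to 4 significant digits, the 2 labelled knockout values did not overlap the 2 control values for 5 of the 14 probes (35.7%). Dusp6 was counted as overlapping because its female labelled knockout and male control values both rounded to 14.10. Over all probes the groups did not overlap for 35.2%, a share taken on unrounded intensities, so the 2 shares were not counted quite alike.

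**Figure D1:**
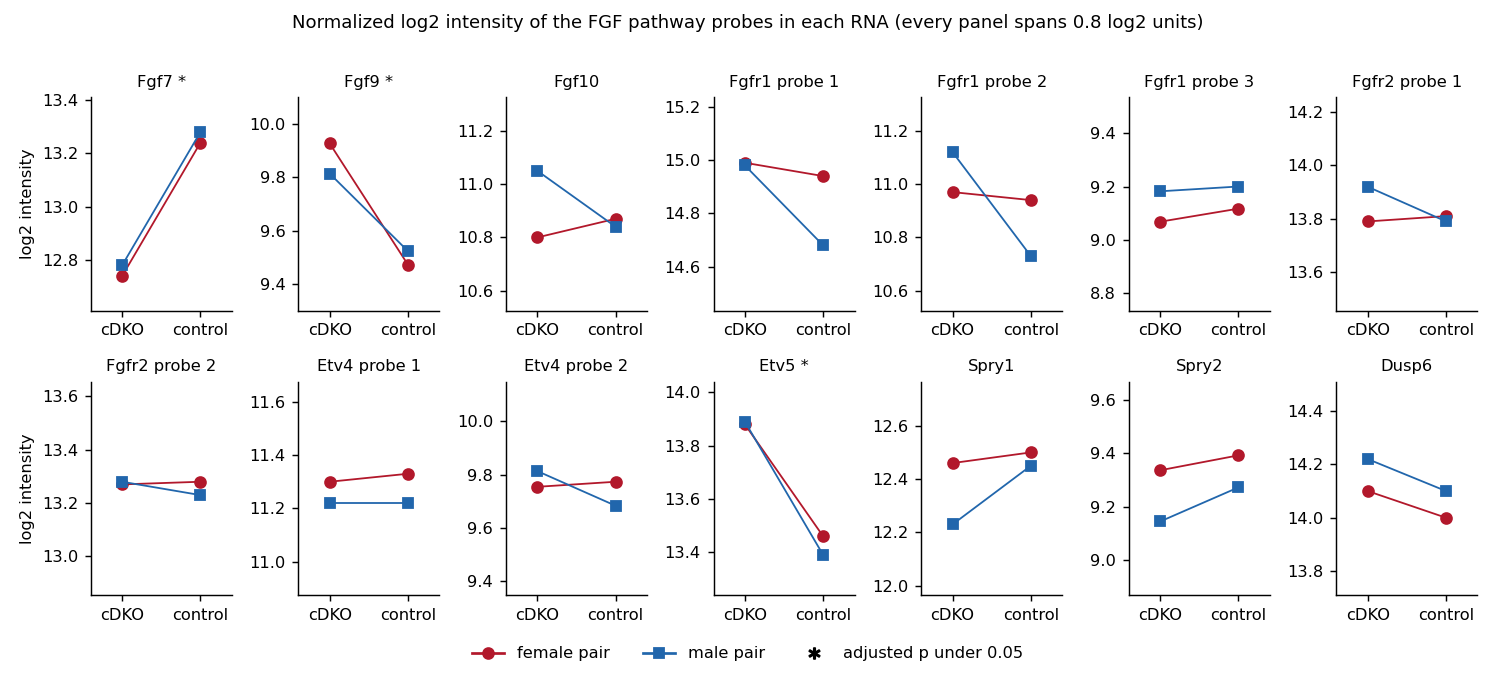
Normalized log2 intensity (vertical axes, each panel spanning the same range in log2 units) of the 14 FGF pathway probes in the labelled Tbx2/Tbx3cDKO RNA (left in each panel) and the control RNA (right) of the female pair (circles) and the male pair (squares), with a line for each pair. Fgf7 lies lower and Fgf9 and Etv5 lie higher in both labelled knockout RNAs. For Fgf10, both Fgfr2 probes and the dimmer Etv4 probe the lines of the pairs slope in opposite directions.

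Fgf7, a growth factor that mesenchyme makes for neighbouring epithelium, had log2 intensities of 12.74 and 12.78 in the female and male labelled knockout ureters, against 13.24 and 13.28 in the female and male controls. Both labelled knockout values lay below both control values. The log2 ratio was -0.50 (female pair) and -0.51 (male pair), a mean of -0.50 ± 0.0046 (SD, n = 2 pairs), or 0.705 times the control level (limma, adjusted p = 0.0106). All 8 spots pointed the same way, between -0.51 and -0.49 for the females and between -0.54 and -0.49 for the males. The SD of 2 pairs that happen to lie close together understates the error, and the interval that uses the spread pooled over all probes ran from -0.66 to -0.35. Only 1.15% of all probes tested had a mean log2 ratio as low as this. The call ended with median centring in place of loess (adjusted p = 0.0905) and with the deposited value table (adjusted p = 0.0668).

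Smooth muscle transcripts fell in the same RNAs. Of 9 smooth muscle genes tested, 7 were lower and 0 higher, and the list's summed intensity was 59300 and 59100 units in the female and male labelled knockout ureters, against 200000 and 254000 in the controls. Its brightest member, the alpha actin Acta2, had a log2 ratio of -3.04 and the gamma actin Actg2 of -3.55. In whole ureters, fewer cells of a type and less RNA per cell cannot be told apart, and the part of this shift in the Fgf7 value was not tested. Among 10 genes of the ureteric mesenchyme, 2 were lower, including the forkhead factor Foxf1 at -0.49, and 2 were higher, including the ligand Bmp4 at 0.36. A dimmer Foxf1 probe had -0.38 and did not pass (limma adjusted p = 0.0889). The summed intensity of these 10 genes was 374000 and 373000 in the labelled knockout ureters, against 372000 and 366000 in the controls.

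Fgf9, whose product acts mainly on receptors of mesenchyme, went the other way. Its log2 intensities were 9.93 and 9.81 in the female and male labelled knockout ureters, against 9.47 and 9.52 in the controls, so that both labelled knockout values lay above both control values. The log2 ratio was 0.46 (female pair) and 0.29 (male pair), with a mean of 0.37 ± 0.12 (SD, n = 2 pairs), 1.29 times the control level (limma, adjusted p = 0.0480). The spots were more scattered than those of Fgf7, between 0.35 and 0.61 for the females and between 0.21 and 0.38 for the males, and all 8 were above 0. This value lay just inside the threshold, and the call ended under 4 of 10 alternatives: the processed signals (adjusted p = 0.105), median centring (0.167), the deposited value table (0.139) and non-uniform spots kept (0.0571). Of 12 urothelial markers, 0 passed in limma (5 at an unadjusted p under 0.05), with 5 ratios above and 7 below 0 and a median of -0.073. The brightest, Krt18, was at -0.20, and the member farthest from 0, Upk1b, at -0.29. The summed intensity of the 12 was 230000 and 236000 in the labelled knockout ureters, against 264000 and 242000 in the controls.

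Fgf10, which shares the epithelial FGFR2 splice form with FGF7, had log2 intensities of 10.80 and 11.05 in the female and male labelled knockout ureters, against 10.87 and 10.84 in the controls. The groups overlapped and the pairs pointed in opposite directions, at -0.070 (female) and 0.21 (male). The mean was 0.070 ± 0.20 (SD, n = 2 pairs, limma adjusted p = 0.892), and its interval, from -0.14 to 0.28, does not reach the Fgf7 value. Within the pairs, Fgf7 lay below Fgf10 by a difference in log2 ratio of -0.43 (female) and -0.72 (male). Fgf9 lay above Fgf7 by 0.96 and 0.80. These differences between probes were not tested.

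Neither receptor passed on any of its probes. Fgfr1, which is found in mesenchyme, was measured by 3 probes. On the brightest, its log2 intensities were 14.99 and 14.98 in the female and male labelled knockout ureters, against 14.94 and 14.68 in the controls, and the log2 ratio was 0.18 ± 0.17 (SD, n = 2 pairs, limma adjusted p = 0.433). The next probe had a log2 ratio of 0.21 ± 0.25 and the dimmest -0.034 ± 0.022, so the Fgfr1 probes disagree in sign.

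On both Fgfr1 probes with a positive ratio, the male pair was the higher, at 0.30 and 0.39, against 0.053 and 0.032 in the female pair. Fgfr2, the receptor that epithelium uses for FGF7 and FGF10, was measured by 2 probes. Its brighter probe had log2 intensities of 13.79 and 13.92 in the labelled knockout ureters, against 13.81 and 13.79 in the controls, with a log2 ratio of 0.054 ± 0.12 (SD, n = 2 pairs). The other probe had 0.020 ± 0.047. The intervals of the Fgfr2 probes, from -0.12 to 0.23 and from -0.14 to 0.18, include 0. Of the 5 receptor probes, 0 reached an unadjusted p under 0.05. The splice forms that the probes detect were not known here.

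**Figure D2:**
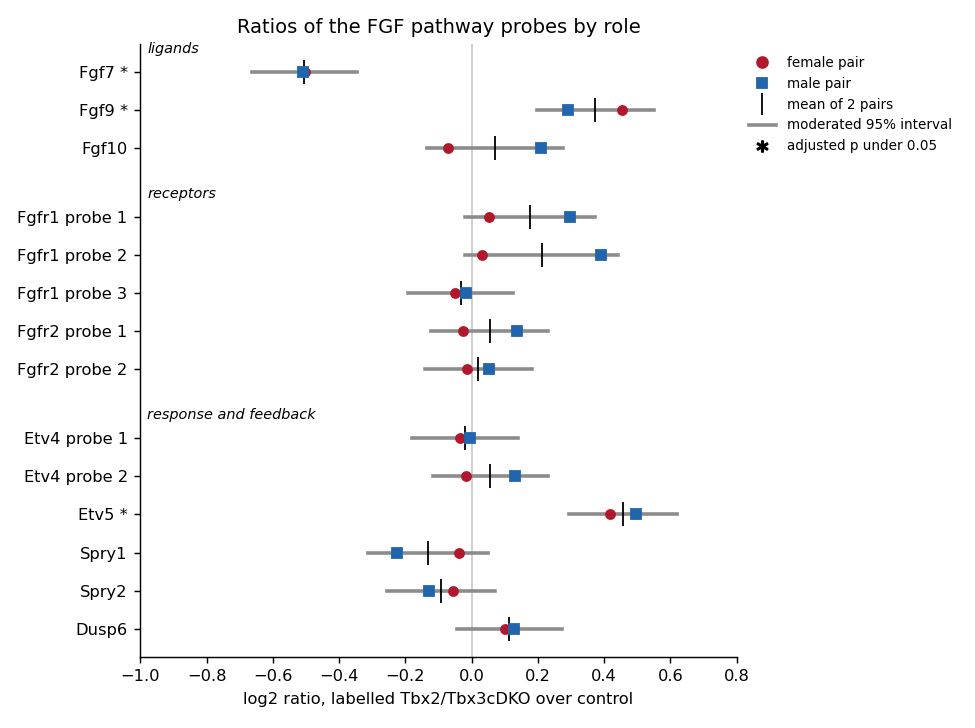
Log2 ratio of labelled Tbx2/Tbx3cDKO over control (horizontal axis) for the 14 probes, grouped as ligands, receptors, and response and feedback genes. Circles are the female pair, squares the male pair, ticks the mean and grey bars the moderated 95% interval. The intervals of Fgf7, Fgf9 and Etv5 lie away from 0, and those of the other 11 probes include 0.

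Among the response genes, Etv5 was the member that passed. This ETS factor, which FGF and RET signals induce, had log2 intensities of 13.88 and 13.89 in the female and male labelled knockout ureters, against 13.46 and 13.39 in the controls. Both labelled knockout values lay above both control values. The log2 ratio was 0.42 (female pair) and 0.50 (male pair), with a mean of 0.46 ± 0.057 (SD, n = 2 pairs), 1.37 times the control level (limma, adjusted p = 0.0169, interval 0.29 to 0.62). All 8 spots were above 0, between 0.34 and 0.44 for the females and between 0.46 and 0.56 for the males, and 1.21% of all probes tested had a mean log2 ratio at least as high. The call ended with the software's processed signals (adjusted p = 0.0589), median centring (0.0852) and the deposited value table (0.0783).

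Etv4, the close relative of Etv5 that often acts alongside it, did not pass on either of its probes. The brighter probe had log2 intensities of 11.30 and 11.22 in the female and male labelled knockout ureters, against 11.33 and 11.22 in the controls, and these overlap. Its log2 ratio was -0.020 ± 0.020 (SD, n = 2 pairs, limma adjusted p = 0.974), with an interval from -0.18 to 0.14 that lies wholly below the interval of Etv5. The dimmer probe had 0.056 ± 0.11. Etv5 lay above Etv4 by 0.45 (female) and 0.50 (male), which was not tested.

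The feedback inhibitors pointed in different directions and did not pass. Spry1, which restrains receptor tyrosine kinase signals in the ureteric bud, had log2 intensities of 12.46 and 12.23 in the female and male labelled knockout ureters, against 12.50 and 12.45 in the controls. Its log2 ratio was -0.13 ± 0.13 (SD, n = 2 pairs, limma adjusted p = 0.567). Spry2, of the same Sprouty family, had 9.34 and 9.14 against 9.39 and 9.27 in the controls, and a log2 ratio of -0.092 ± 0.051 (adjusted p = 0.722).

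Both Sprouty genes were below 0 in both pairs, but in each case the groups overlapped. Dusp6, the phosphatase that removes the activating phosphates from ERK, had 14.10 and 14.22 in the labelled knockout ureters, against 14.00 and 14.10 in the controls. Its log2 ratio was 0.11 ± 0.018 (SD, n = 2 pairs, adjusted p = 0.581), with all 8 spots above 0 and an interval from -0.046 to 0.27. That interval includes 0 and ends below the mean of Etv5. Etv5 lay above Dusp6 by 0.32 and 0.37 in the female and male pair.

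Set side by side by role, the 3 ligand probes comprised 1 rise, 1 fall and 1 probe that did not pass, with a median of 0.070. The 6 response probes comprised 1 rise and 5 that did not pass, with a median of 0.018 and 3 probes on each side of 0. With 1 probe per gene, the brightest, the response median was -0.020, on the other side of 0, and the receptor median 0.11 in place of 0.054. The response median minus the ligand median was 0.044 (female) and -0.15 (male), so it changed sign between the pairs. Each role held ratios on both sides of 0. The ligand that fell and the response gene that rose lay farthest apart, Etv5 above Fgf7 by 0.92 (female) and 1.00 (male).

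The start regions of Fgf7 and Etv5, the members farthest apart, are shown because these data compare tissue labelled as lacking a pair of T-box transcription factors, and because the product of Etv5 is itself an ETS factor. They are the 250 bases before the annotated start from RefSeq, build GRCm38.p6, at chr2:126034408-126034657 on the plus strand for Fgf7 and, for the outer of the 2 Etv5 starts, at chr16:22439571-22439820 on the minus strand. Capitals mark the ETS core GGAA on either strand.
Fgf7: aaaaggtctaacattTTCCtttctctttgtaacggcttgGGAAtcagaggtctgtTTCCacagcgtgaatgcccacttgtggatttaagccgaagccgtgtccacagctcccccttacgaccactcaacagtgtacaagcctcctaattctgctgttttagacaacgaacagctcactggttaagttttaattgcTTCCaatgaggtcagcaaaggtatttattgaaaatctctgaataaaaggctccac
Etv5: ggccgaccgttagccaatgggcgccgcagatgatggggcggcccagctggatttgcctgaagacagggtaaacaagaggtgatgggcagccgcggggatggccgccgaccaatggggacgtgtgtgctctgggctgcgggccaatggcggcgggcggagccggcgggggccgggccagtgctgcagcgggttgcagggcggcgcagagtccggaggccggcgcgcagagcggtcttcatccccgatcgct
The Fgf7 window held 4 matches to GGAA and this Etv5 window 0, where 93.4% of the 32851 windows of all genes held the motif. The inner Etv5 start, not printed, had 4. The T-box core GGTGTG, searched on both strands and contained in the fuller site AGGTGTGA, was in 0 of the 9 windows of the 8 members with an entry, against 16.3% of all windows (1.12% for AGGTGTGA). Fgfr1 and Etv4 had no entry. The absence says only that these letters are not in these windows.

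Other genes of the pathway, GDNF/RET signalling genes and immediate early genes were read from 7 lists by the brightest probe of each gene. Of 78 genes tested, 2 were higher and 6 lower, where 4.36% of all 15461 named genes were called (2.33% higher and 2.03% lower). Most of these calls lay outside the FGF lists: 5 of the lower genes were immediate early genes and 1 of the higher was a GDNF/RET gene. Among 11 other FGF ligands, 0 passed in limma (4 at an unadjusted p under 0.05). Fgf18 had the largest mean log2 ratio of these, at 0.63 ± 0.64 (SD, n = 2 pairs, adjusted p = 0.169), with 0.18 (female) and 1.09 (male). A dimmer Fgf18 probe gave 0.61 ± 0.67.

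Among 4 other receptors and co-receptors, all with ratios below 0, Fgfr4 fell. Its log2 ratio was -0.45 ± 0.077 (SD, n = 2 pairs, limma adjusted p = 0.0187), and a dimmer Fgfr4 probe had -0.27 and did not pass (adjusted p = 0.0991). The Fgfr4 call ended under 3 of 10 alternatives, with adjusted p up to 0.142. Among 12 other feedback and response genes, 0 passed (2 at an unadjusted p under 0.05). The member with the largest mean ratio was Spred3, of a family that inhibits RAS-ERK signalling, at 0.31 ± 0.21 (adjusted p = 0.153). The median of that list was -0.045.

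Among 15 modulators of FGF signals outside the cell or in receptor maturation, 1 rose. This was Shisa2, which holds back the maturation of FGF and Frizzled receptors, at 0.56 ± 0.11 (SD, n = 2 pairs, limma adjusted p = 0.00997). The call ended with the processed signals (adjusted p = 0.0518) and the deposited value table (0.0614). The study is known to have picked Shisa2 from these samples, so its direction is not independent evidence. Of 19 components of the ERK cascade, 0 passed (2 at an unadjusted p under 0.05). Their median was 0.018, and the ubiquitin ligase Cbl had the largest mean ratio, at 0.27 ± 0.052.

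Signals through RET, which also induce Etv5 in the ureteric bud, were read from a list of their own. The co-receptor Gfra1 rose, at 0.34 ± 0.0066 (SD, n = 2 pairs, limma adjusted p = 0.0464), a call that held under 5 of 10 alternatives. Ret and its ligand Gdnf, named here after their values were seen, did not pass, and their pairs disagreed in sign. Ret had 0.069 (female) and -0.19 (male), and Gdnf had -0.46 and 0.44. Both probes were dim, with log2 intensities from 8.0 to 8.4 for Ret and from 7.1 to 8.0 for Gdnf, against 9.2 to 9.7 for Gfra1. Any part of RET signals in the Etv5 value was not tested.

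Immediate early genes, which ERK induces within minutes and which handling of tissue also induces, included 5 that fell. Of 12 tested, 5 were lower and 0 higher, with a median of -0.37. Fosb was at -0.97 ± 0.53 (SD, n = 2 pairs), Atf3 at -0.73 ± 0.44 and Fos at -0.72 ± 0.38, with limma adjusted p from 0.0240 to 0.0399. The summed intensity of the 12 genes was 110000 and 106000 in the female and male labelled knockout ureters, against 186000 and 133000 in the controls. The list median was -0.62 (female) and -0.16 (male). The parts of ERK signals and of tissue handling in these values were not tested. The count of 5 became 4 with non-uniform spots kept, 2 with median centring and with robust eBayes, 1 with the processed signals and 0 with the deposited value table (6 at an unadjusted p under 0.05).

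**Figure D3:**
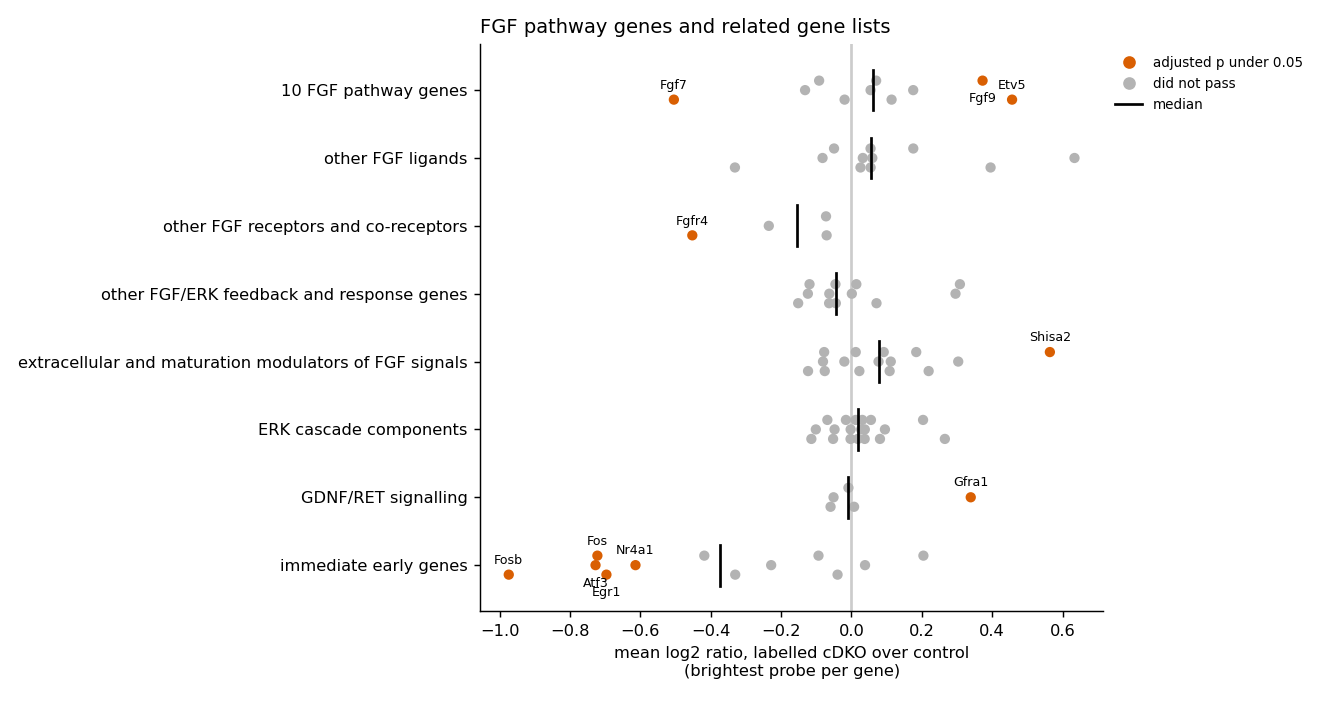
Mean log2 ratio of labelled Tbx2/Tbx3cDKO over control (horizontal axis) for the 10 FGF pathway genes and the tested genes of 7 related lists, 1 point per gene, with a bar at the median. Coloured, named points passed at an adjusted p under 0.05: 3 of the FGF pathway genes, 5 immediate early genes, and Fgfr4, Shisa2 and Gfra1.

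Markers of other cell types were also compared, and only genes of glia and neurons and erythroid genes had calls. Of 7 genes of glia and neurons 3 were higher, with Fabp7 at 0.71, and their summed intensity was 8170 and 10100 in the labelled knockout ureters, against 5900 and 6640 in the controls. Of 5 erythroid genes 2 were higher, with Hbb-b1 at 0.43 and Hba-a1 at 0.31, and the sums were 521000 and 469000 in the labelled knockout ureters, against 365000 and 417000. In limma 0 of 8 endothelial genes passed, with 2 at an unadjusted p under 0.05. Kdr was at 0.30 and Egfl7 at 0.32, the latter with -0.20 (female) and 0.85 (male). Of 7 immune genes 0 passed, with 4 at an unadjusted p under 0.05, Csf1r at 0.17 and Lyz2 at 0.32. All 8 endothelial and all 7 immune ratios were above 0, with medians of 0.13 and 0.17. Endothelial sums were 114000 and 136000 in the labelled knockout ureters, against 109000 and 108000. Immune sums were 29300 and 30600, against 26700 and 27100. Of 7 nephron genes tested (Nphs1 was not well above background) 0 passed, with 2 at an unadjusted p under 0.05, Cited1 at -0.056 and Six2 at 0.38. Their summed intensity was 13600 and 15300 in the female and male labelled knockout ureters, against 13200 and 12000 in the controls. The part of these markers in the values of Fgf9, Fgf10, Fgfr1 and Etv5 was not tested.

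**Figure D4:**
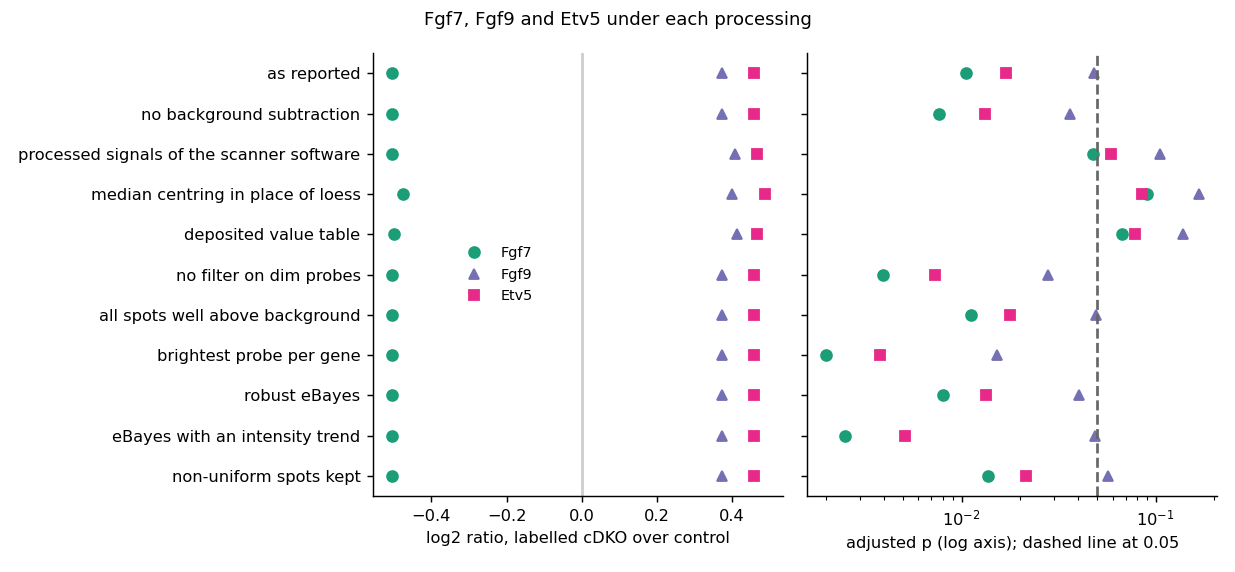
Log2 ratio of labelled Tbx2/Tbx3cDKO over control (left) and adjusted p on a log axis (right) of Fgf7 (circles), Fgf9 (triangles) and Etv5 (squares) as reported and under 10 other ways of processing. The ratios move little (Fgf7 between -0.50 and -0.48, Fgf9 between 0.37 and 0.41, Etv5 between 0.46 and 0.49), while the adjusted p crosses the dashed line at 0.05 under some settings.

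The sizes of the 3 called ratios depended little on the processing. Over 10 alternatives Fgf7 stayed between -0.50 and -0.48, Fgf9 between 0.37 and 0.41 and Etv5 between 0.46 and 0.49. Their adjusted p ranged from 0.0020 to 0.0905 for Fgf7, from 0.0153 to 0.167 for Fgf9 and from 0.0038 to 0.0852 for Etv5.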

How the data were processed

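Total RNA of 4 ureter samples was labelled and hybridised in 2 pairs to two-colour Agilent arrays. Per the submitters' processing notes the software that quantified the scans was Agilent Feature Extraction, version 10.7.3.1. Per the file headers, the deposited scanner output gives raw spot and local background intensity in each channel, beside processed signals after the software's background subtraction and dye normalization. The deposited value table holds a signed fold score per probe. Its making is not described in these sources, and its centring stays unknown. Its log2 values correlated at 0.984 and 0.986 with the processed ratios of labelled knockout over control over 24302 probes with all spots well above background, which settled its direction. Its median was 1 on both arrays, and values of exactly 1 made up 33.7% (female) and 34.1% (male).

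Background was corrected with normexp (offset 50) on mean spot signals, which were normalized by loess within each array. Non-uniform spots (186 and 223) and control spots were omitted, each probe's 4 spots averaged, and ratios turned to labelled knockout over control. A probe entered the test if over 0.5 of its spots exceeded background in both knockout RNAs or in both control RNAs (25934 of 39396 measured on both arrays). Intensities per RNA are given after loess and Aquantile scaling. Accessions were paired with symbols through RefSeq (GRCm38.p6), which named 28303 probes. The build used for the array design was not known here.

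The test was limma 3.58.1 (lmFit, eBayes; R 4.3.3), with Benjamini-Hochberg adjustment over all 25934 probes. Residual degrees of freedom were 1 and prior ones 5.65, so p-values rest mostly on the spread of all probes together and measure only the spread between these samples. Lists have no test: their counts and medians use the brightest probe of each gene. The 10 genes and the lists were chosen with earlier results of these data known. The text names the 10 genes, Tbx2 and Tbx3, up to 3 called genes of each pathway list (or the member with the largest mean change) and the brightest and most changed marker of each cell type. Gdnf, Ret and the genes named for a call under an alternative were chosen after their values were seen. A marker of glia and neurons is not reported here and was left out of its list. These steps were first tested on simulated data. Alternatives varied the background, normalization, filter, spots, variance model and choice of probe.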

Additional observations from a re-analysis of the deposited data

Results flagged for a closer look

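Each value in these paragraphs had opposite signs in females and males. None of the differences was tested, since each sex had 1 pair, and the dyes were exchanged between the sexes. All are male minus female differences in log2 ratio. Fgf10 differed by 0.28, the brighter and the dimmer Fgfr2 probe by 0.16 and 0.066, and the dimmer Etv4 probe by 0.15. The median of the ligand probes differed by 0.28, that of the receptor probes by 0.15 and that of the response probes by 0.087. Over all probes tested the medians of the pairs were -0.0083 (female) and 0.0092 (male), and 55.5% of probes had the same sign in both pairs, against 71.4% of the 14 FGF pathway probes.

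Among the other lists, the median of ERK cascade components differed by 0.10 and that of GDNF/RET signalling by -0.079. Gdnf differed by 0.90 and Ret by -0.26, both on dim probes (log2 intensities from 7.1 to 8.0 for Gdnf and from 8.0 to 8.4 for Ret). Among the markers of other cell types, the nephron progenitor gene Six2 differed by 1.44 and the endothelial gene Egfl7 by 1.06.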

How the results depend on the processing

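Of the 14 FGF pathway probes, 13 kept their direction under each alternative run for them, which were 10, or 9 for the 4 dimmer probes of Fgfr1, Fgfr2 and Etv4 that the choice of 1 probe per gene leaves out. The exception was the brighter Etv4 probe, which was not called and had a log2 ratio of 0.015 with median centring. The 3 calls became 2 with non-uniform spots kept (Etv5 and Fgf7), 1 with the processed signals (Fgf7), and 0 with median centring and with the deposited value table (3 at an unadjusted p under 0.05 under each). Over all probes 986 passed, against 607 with the processed signals, 378 with median centring and 375 with the deposited value table. The cause was not tested.

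Other FGF ligands had 0 calls as reported, 1 without a filter on dim probes and with robust eBayes (Fgf13), and 2 with the brightest probe per gene (Fgf5 and Fgf13). With the brightest probe per gene, other feedback genes had 1 (Spred2). Other receptors had 0 in place of 1 with the processed signals, median centring and the deposited value table. Modulators had 0 in place of 1 with the processed signals and the deposited value table. GDNF/RET signalling had 0 in place of 1 with these 3 settings, with an intensity trend and with non-uniform spots kept. In each of these cases at least 1 gene kept an unadjusted p under 0.05. The 5 calls among immediate early genes became 1 with the processed signals, 2 with median centring and with robust eBayes, and 0 with the deposited value table. The medians of the 3 roles moved by less than the spread between pairs under all alternatives, although with the brightest probe per gene the response median turned to -0.020.

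Leaving out a pair leaves a value with no test: Fgf7 was at -0.51 and -0.50, Fgf9 at 0.29 and 0.46, and Etv5 at 0.50 and 0.42 without the female and without the male pair. Each ratio was taken within a pair on 1 array, so the reported fit is already paired.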
